A study of Mus musculus with 6 samples.

Results

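Rab GTPases are small membrane switches: each is loaded with GTP by an exchange factor, recruits effectors that move, tether or fuse a vesicle, and is switched off by a GTPase-activating protein. Each Rab marks its own set of compartments, so that a macrophage uses early endosomal Rabs just after uptake, late endosomal and phagosomal Rabs as a phagosome matures, and secretory and Golgi Rabs to send proteins such as cytokines to the surface. A prenyl group added by Rab geranylgeranyl transferase holds them in the membrane.

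The Rab genes were taken as all non-control probes whose gene name on the array is Rab followed by a number, with or without a further letter and digit. This gave 82 probes for 57 genes out of 55681 non-control probes. Of the 57 genes, 47 could be tested. The cells were RAW264.7, an established mouse macrophage line, kept for 4 h in DMEM medium alone (the controls) or with 50 µg/ml AEPS, a polysaccharide from roots of the plant Actinidia eriantha, in 3 samples per group by the labels. Each sample's RNA was read, as Cy3-labelled cRNA, on an Agilent array with 1 colour. The comparison asks which Rab transcripts differed after AEPS.

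The scanner files labelled replicate 1 and replicate 2 were copies of each other in both groups, and each such pair was used once. The scanner data thus come from 4 distinct arrays, with 1 control and 1 AEPS array on each of 2 slides. The authors' value table has 3 distinct samples per group. The scanner files labelled replicate 3 match its replicate 2 columns, and its replicate 3 columns match no scanner file. Of 59305 non-control spots, 55.4% to 58.7% were well above background on each array. Nothing in the labels says that the samples are separate cultures, so that the p-values measure only their spread, and this spread may be technical. All 8 macrophage markers were above background on every array, and 4 of the 16 T cell, B cell, fibroblast and epithelial markers were. Fewer cells and less RNA per cell cannot be told apart in these bulk samples. A level below is log2 of the processed signal minus the 75th percentile of its array, and a change is AEPS minus control on that scale, with the standard error and the Benjamini-Hochberg adjusted p of limma over 25882 features. Levels of different genes come from different probes and are not compared. Scaling on the spike-in controls instead moved the median change of all features from -0.19 to 0.45.

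The probes of the 4 Rab genes called in the scanner fit, and of Rab5a and Rab8b, which rose in the value table, are shown by their first 30 bases, 5′ to 3′ in the sense of the transcript, with positions in mm9 as the array files give them. They are listed because a value describes only the short stretch of transcript that its probe reads.
Rab32 (chr10:10265164-10265193, minus strand): gccaagtttctgtagtgtaaaacctggaag
Rab3a (chr8:73282447-73282476, plus strand): cactcctccctagaagttatgaacactaca
Rab19 (chr6:39340244-39340273, plus strand): gaactggcttgccctttgtcactctgacta
Rab40c (chr17:26019189-26019218, minus strand): cagagaccttttctctggaatcgcgataga
Rab5a (chr17:53646662-53646691, plus strand): tcccctatgaaaggaaggggctttgctgtt
Rab8b (chr9:66691594-66691623, minus strand): tatggacctgccatgtggctagtctgttga

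Of the 47 tested Rab genes, 1 rose and 3 fell with AEPS in the scanner fit at an adjusted p of 0.05. Rab32 rose, and Rab3a, Rab19 and Rab40c fell. Over all features 4.18% were called higher and 2.94% lower, and the Rab genes called were 2.13% and 6.38% of those tested. The median change of the tested Rab genes was -0.16, against -0.19 over all features, with 18 above 0 and 29 below. Of all 25882 features, 9498 lay above 0 and 16384 below. With the replicate number as a block, which pairs the arrays of a slide, 8 Rab genes were called higher and 15 lower (17% and 31.9%), against 13% and 16.8% of all features. Rab39 and Rab27a, which entered the test only through the controls, are among those 15. In the authors' value table, with 3 samples per group, 11 were called higher and 14 lower (23.4% and 29.8%), against 17.1% and 16.4% of all features. With the block added to the table the counts were 12 and 19 (25.5% and 40.4%), against 23.5% and 26.3%. With spike-in scaling 5 Rab genes were called higher and 0 lower, against 1936 and 57 of all 25882 features. The 5 were Rab32, Rab5a, Rab8b, Rab11a and Rab18, with changes of 1.83, 1.52, 1.63, 1.34 and 1.43. Rab1a and Rab33b changed by 1.43 and 1.23 and did not pass (limma adjusted p = 0.0528 and 0.0606). With that scaling 37 of 47 Rab genes lay above 0, as did 21550 of all features. The median of the Rab genes was 0.47, against 0.45 over all features. The balance of signs thus moved with the scaling in the family and over all features. With no filter on dim probes, which tests more features, limma called 0 of 57 Rab genes after adjustment and 0 of all features. Whether the share of Rab genes called differs from that of all features was not tested.

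**Figure D1:**
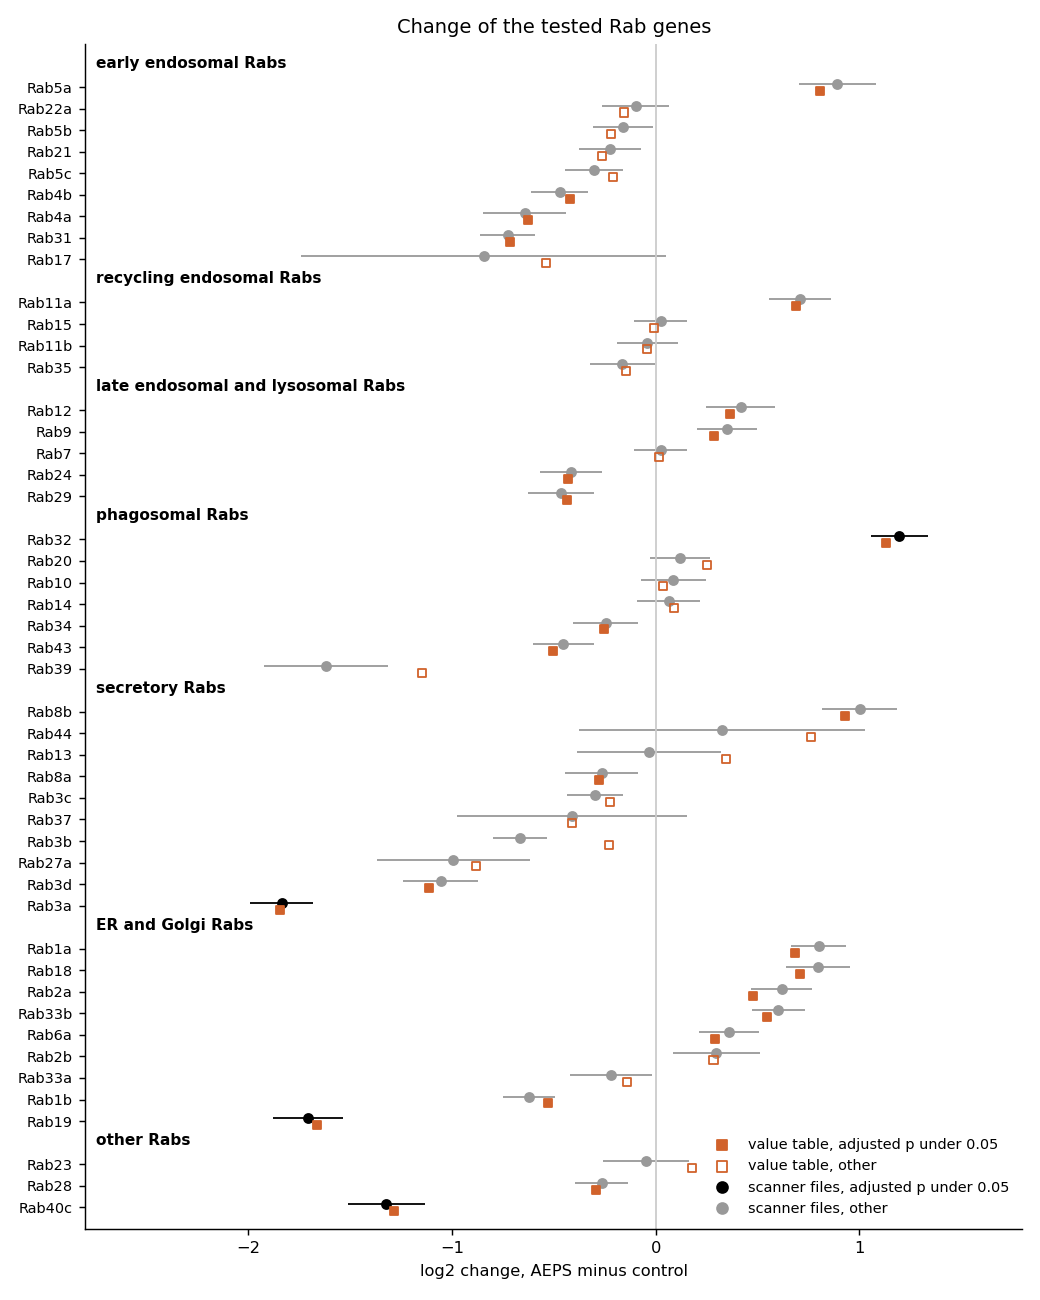
The x axis is the log2 change, AEPS minus control, of each of the 47 tested Rab genes, grouped by role. Circles with bars are the scanner fit (change and standard error, 2 arrays per group), squares are the authors' value table (3 samples per group), and dark circles and filled squares passed an adjusted p of 0.05 in limma. Rab32 lies furthest to the right in both sources and Rab3a furthest to the left.

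Over all features, the shares called higher and lower were 4.18% and 2.94% in the scanner fit and 17.1% and 16.4% in the value table. The counts of each role group below were not tested against these shares. Among the early endosomal Rabs, which govern fusion of incoming vesicles and the first sorting step, 0 of 9 tested genes passed in the scanner fit, while 1 rose and 3 fell in the value table. The riser was Rab5a, 1 of the 3 Rab5 genes that drive early endosome fusion. Its level was 1.34 and 1.65 in the controls and 2.26 and 2.51 with AEPS, so both AEPS values lay above both control values. The change was 0.89 ± 0.19 (SE, 2 arrays per group, limma adjusted p = 0.0712, and 0.0336 with the slide as a block). In the value table Rab5a rose by 0.81 ± 0.09 (SE, 3 samples per group, limma adjusted p = 0.00205), with AEPS samples at 10.81, 10.94 and 10.88 and controls at 9.94, 10.15 and 10.12. The Rab5a probe was printed in 10 spots on each array, and the SD of the level over spots was 0.03 to 0.11 on 3 arrays. On the first control array it was 0.65 with every spot included, and the highest spot, at 3.36 against a mean of 1.55, was 1 flagged as an outlier and left out. A second Rab5a probe, at a different place in the transcript, gave a change of 0.49 ± 0.17 (SE, limma adjusted p = 0.14) and passed in the value table at 0.36 (limma adjusted p = 0.0274).

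The other Rab5 genes lay on the other side of 0. Rab5c was at 6.49 and 6.55 in the controls and 6.14 and 6.29 with AEPS, a change of -0.30 ± 0.14 (SE, limma adjusted p = 0.226) that became 0.33 with spike-in scaling. Rab5b changed by -0.16 at its brightest probe (0.47 with spike-in scaling) and by -0.53, -0.63 and -0.87 at its other 3 probes, of which the last passed when every probe was tested (limma adjusted p = 0.0418). All 4 Rab5b probes therefore pointed the same way, but by different amounts.

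Rab31, which carries cargo between the trans-Golgi network and endosomes, was at 4.06 and 4.12 in the controls and 3.31 and 3.42 with AEPS. It changed by -0.73 ± 0.13 (SE, limma adjusted p = 0.0593), passed with the block (0.0345) and fell by 0.72 in the value table (limma adjusted p = 0.00191), while with spike-in scaling the scanner change was -0.10. Rab4a and Rab4b, which return receptors quickly from early endosomes to the surface, both fell in the value table, by 0.63 and 0.42 (limma adjusted p = 0.041 and 0.00819), while with spike-in scaling the scanner change of Rab4b was 0.16 and that of Rab4a -0.01. A second, dimmer Rab4a probe changed by -0.28 in the table (limma adjusted p = 0.374 with every probe tested). On the scanner arrays Rab4a was at -0.17 and 0.21 in the controls and -0.74 and -0.51 with AEPS, with no overlap, and limma's adjusted p was 0.128. With the block both passed (0.0399 and 0.0448). Rab17, Rab21 and Rab22a passed in neither source without the block. The 2 arrays of a group differed widely for Rab17, from -1.71 to -3.45 in the controls, and its change of -0.85 had a standard error of 0.89, although it passed with the block (0.0336), since it was -0.82 on slide 1 and -0.87 on slide 2.

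The recycling endosomal Rabs, which take a slower route back to the plasma membrane, gave 1 changed gene of 4 tested in the value table and 0 in the scanner fit. Rab11a, which defines the recycling endosome and its delivery of membrane to forming phagosomes, was at 2.84 and 2.94 in the controls and 3.49 and 3.71 with AEPS. The change was 0.71 ± 0.15 (SE, limma adjusted p = 0.0733, and 0.0359 with the block), and Rab11a rose by 0.69 in the value table (limma adjusted p = 0.00201). Its close relative Rab11b stayed within its spread, at 4.53 and 4.67 in the controls and 4.47 and 4.64 with AEPS. Rab35, a Rab of fast recycling at the plasma membrane, was at 5.16 and 5.35 in the controls and 4.99 and 5.19 with AEPS, which overlap. It changed by -0.16 ± 0.16 (SE, limma adjusted p = 0.52), or 0.47 with spike-in scaling, and Rab15 by 0.02.

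Among the late endosomal and lysosomal Rabs no gene of 5 tested passed in the scanner fit, and 2 rose and 2 fell in the value table. Rab7, the main Rab of late endosomes and of phagosome fusion with lysosomes, was at 2.64 and 2.61 in the controls and 2.63 and 2.67 with AEPS. Its change was 0.02 ± 0.13 (SE, limma adjusted p = 0.911), so the groups overlapped. Rab12 and Rab9, which act in receptor degradation and in return of receptors to the Golgi, rose by 0.37 and 0.29 in the value table (limma adjusted p = 0.0132 and 0.0211). The other Rab9 probes changed by 0.21 and 0.18 in the table and did not pass (limma adjusted p = 0.0657 and 0.262 with every probe tested). Rab24, linked to autophagy, and Rab29, linked to stressed lysosomes, fell there by 0.43 and 0.44 (limma adjusted p = 0.00534 and 0.00742), while with spike-in scaling the scanner change of Rab29 was 0.17. On the scanner arrays Rab24 was at 3.81 and 3.99 in the controls and 3.41 and 3.56 with AEPS, and its change of -0.42 became 0.22 with spike-in scaling. Rab24 and Rab29 both passed with the block (0.0478 and 0.0463). The array also carries Rab7b, a late endosomal Rab of macrophages, under an older clone name that the naming rule does not take. Rab7b was at 3.66 and 3.77 in the controls and 2.48 and 2.58 with AEPS and fell by 1.18 (limma adjusted p = 0.0325), a value added after it was seen. With spike-in scaling its change was -0.55 and did not pass (limma adjusted p = 0.225).

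The phagosomal Rabs held the only Rab gene that rose in the scanner fit, 1 of 7 tested. Rab32, which serves lysosome-related organelles and is recruited to phagosomes that hold bacteria, was at 3.86 and 3.95 in the controls and 5.03 and 5.17 with AEPS. All AEPS values were above all control values, and the change was 1.20 ± 0.14 (SE, 2 arrays per group, limma adjusted p = 0.0328), a 2.29-fold rise. The change was 1.17 on slide 1 and 1.22 on slide 2. In the value table the AEPS samples were at 13.48, 13.46 and 13.45 and the controls at 12.36, 12.31 and 12.33, and replicate 3, which no scanner file holds, differed by 1.12. Rab38, its nearest relative, was not well above background on any array. Rab10, Rab14 and Rab20, which reach young phagosomes, changed by 0.09, 0.06 and 0.12 at their brightest probes, which passed in neither source. A second Rab10 probe changed by 0.26 (limma adjusted p = 0.243). It passed in the value table at 0.25 (limma adjusted p = 0.0298 with every probe tested).

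Rab34, which positions lysosomes through the Golgi, was at 5.29 and 5.49 in the controls and 5.06 and 5.23 with AEPS. Its change of -0.25 became 0.39 with spike-in scaling, and it fell by 0.26 in the value table (limma adjusted p = 0.0334). Rab43 was at 1.57 and 1.77 in the controls and 1.16 and 1.27 with AEPS, a change of -0.45 (limma adjusted p = 0.137) that became 0.18 with spike-in scaling. It passed with the block (0.0476) and fell by 0.50 in the value table. Its second probe was much dimmer, with signals of 70.8 and 62.9 in the controls and 49.4 and 47.4 with AEPS. That probe fell by 1.11 (limma adjusted p = 0.0446 with every probe tested). Rab39 was dim, with 1 AEPS array not well above background, and was at -3.08 and -2.61 in the controls and -4.77 and -4.15 with AEPS, a measured change of -1.62. It entered the test only through the controls, so this size is given as a description.

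**Figure D2:**
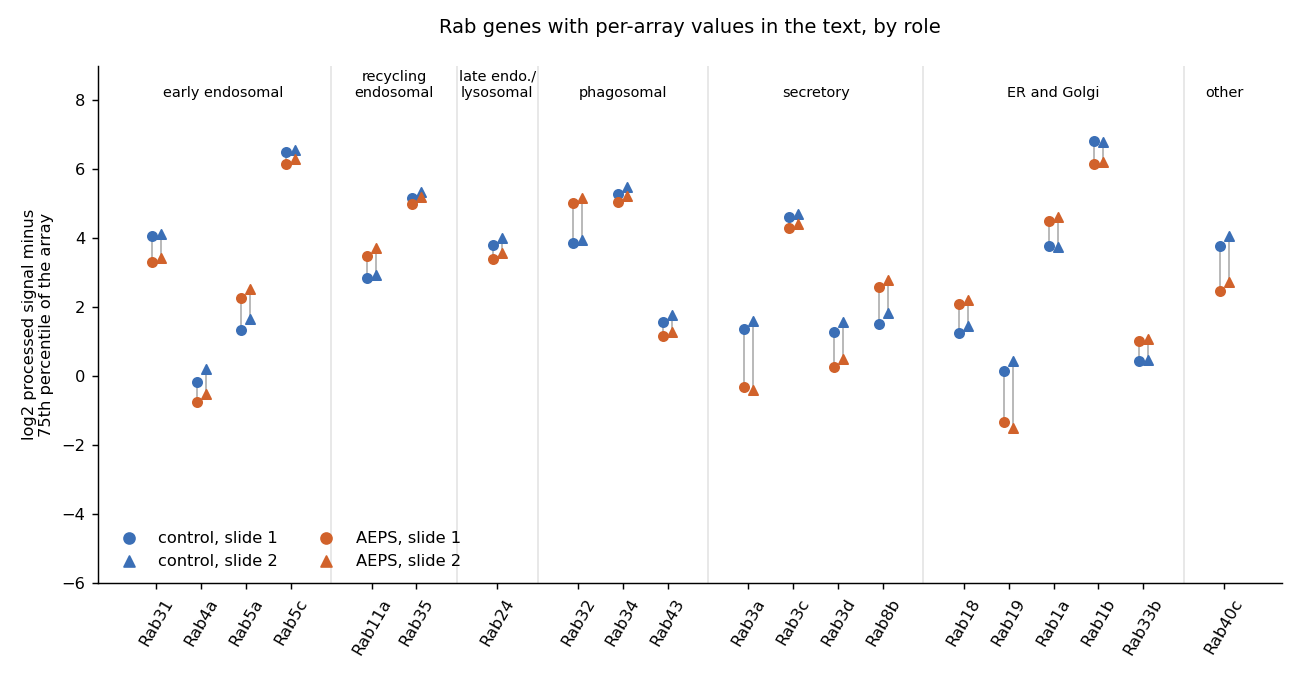
The y axis is log2 of the processed signal minus the 75th percentile of the array, for 20 Rab genes by role. Blue is control, orange AEPS, circles slide 1 and triangles slide 2, and a grey line joins the arrays of a slide. For each of these 20 genes the line runs the same way on both slides, and heights of different genes are not comparable.

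The secretory Rabs, which dock granules and carry post-Golgi vesicles to the surface, gave 1 fall and no rise among 10 tested genes in the scanner fit. It was the largest change of any tested Rab gene in that fit. Rab3a, a Rab of regulated exocytosis best known from synaptic vesicles, was at 1.36 and 1.60 in the controls and -0.31 and -0.40 with AEPS. The arrays did not overlap, and Rab3a fell by 1.84 ± 0.16 on the log2 scale (SE, 2 arrays per group, limma adjusted p = 0.0229). The fall was 3.57-fold. In the value table the controls were at 9.96, 10.10 and 10.18 and the AEPS samples at 8.21, 8.20 and 8.29. With spike-in scaling the change was -1.21 and did not pass (limma adjusted p = 0.0611), and Rab32 changed by more, at 1.83.

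Rab3d, its relative on secretory granules of blood cells, was at 1.28 and 1.58 in the controls and 0.26 and 0.49 with AEPS. It changed by -1.06 ± 0.18 (SE, limma adjusted p = 0.0549), passed with the block (0.0336) and fell by 1.11 in the value table (limma adjusted p = 0.00269). With spike-in scaling the scanner change of Rab3d was -0.42 (limma adjusted p = 0.282), and with the mean of its probes -0.87 (limma adjusted p = 0.108). A second, dimmer Rab3d probe changed by -0.27 in the table (limma adjusted p = 0.633 with every probe tested). Rab3b was dim, at -3.37 and -3.43 in the controls and -4.11 and -4.02 with AEPS. Its change of -0.67 on the scanner arrays was -0.23 in the value table, where replicate 3 differed by 0.17 in the other direction. It passed with the block on the scanner arrays (0.039) and not in the table (0.343). For Rab3c, 2 probes that overlap in the transcript gave changes of -0.30 and -0.25, and neither passed. The first of them was at 4.61 and 4.70 in the controls and 4.30 and 4.42 with AEPS, and its change became 0.33 with spike-in scaling. The capitals below mark the 24 bases that both of the stretches shown contain, the first probe lying 6 bases further along the transcript.
Rab3c probe 1 (chr13:110850554-110850583, minus strand): ATGTTCTACAGAGTGAGTTCTAGGatagca
Rab3c probe 2 (chr13:110850560-110850589, minus strand): gctagaATGTTCTACAGAGTGAGTTCTAGG
Rab3c probe 3 (chr13:110844484-110844513, minus strand): ctgttaggtatttagtttgtgtgtgaattc
The first gave processed signals of 9809 and 7474 in the controls and 11316 and 10464 with AEPS, while the third, far along the transcript, gave 3.75, 2.69, 5.53 and 3.55 and was not well above background on any array. Which transcript the overlapping probes read was not tested.

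Rab8b, which carries post-Golgi vesicles to the plasma membrane, moved the other way from the Rab3 genes. It was at 1.52 and 1.84 in the controls and 2.58 and 2.78 with AEPS, with no overlap. The change was 1.0 ± 0.18 (SE, 2 arrays per group, limma adjusted p = 0.0593, and 0.0336 with the block), and Rab8b rose by 0.93 in the value table (limma adjusted p = 0.0014). A second and much dimmer Rab8b probe, with signals of 58.3 and 44.1 in the controls and 237 and 214 with AEPS, rose by 1.505 ± 0.13 (SE, limma adjusted p = 0.0217 with every probe tested). Rab8a fell by 0.28 in the value table (limma adjusted p = 0.0423), while its scanner change was 0.37 with spike-in scaling. Rab27a, which docks secretory granules, was well above background on 3 of 4 arrays and entered the test only through the controls. Its measured change of -0.99 ± 0.38 (SE, 2 arrays per group) is given as a description. Rab13, Rab37 and Rab44 had standard errors of 0.35, 0.56 and 0.70 and passed in neither source.

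The ER and Golgi Rabs, which run traffic early in the secretory pathway, had the highest median of the role groups, 0.36, with 6 of 9 tested genes above 0. In the scanner fit 1 passed and it fell. The table called 5 higher and 2 lower, against 17.1% and 16.4% of all features. The fall was Rab19, a little-studied Golgi Rab, at 0.15 and 0.44 in the controls and -1.34 and -1.49 with AEPS. The change was -1.71 ± 0.17 (SE, 2 arrays per group, limma adjusted p = 0.0272), -1.49 on slide 1 and -1.93 on slide 2, and -1.66 in the value table. With spike-in scaling it was -1.07 and did not pass (limma adjusted p = 0.0763).

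Rab1a, which takes vesicles from the ER to the Golgi, was at 3.78 and 3.74 in the controls and 4.51 and 4.61 with AEPS. It changed by 0.80 ± 0.13 (SE, limma adjusted p = 0.0524), passed with the block (0.0354) and rose by 0.68 in the value table (limma adjusted p = 0.0063). Rab1b, which acts at the same step, went the other way, from 6.82 and 6.79 to 6.16 and 6.20. Its change of -0.62 (limma adjusted p = 0.0679, and 0.0368 with the block) was 0.01 with spike-in scaling, and it fell by 0.53 in the value table (limma adjusted p = 0.00681).

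Rab18, a Rab of the ER and lipid droplets, was at 1.24 and 1.46 in the controls and 2.08 and 2.22 with AEPS, a change of 0.80 ± 0.16 (SE, limma adjusted p = 0.0641). Rab33b, a Golgi Rab that binds an autophagy protein complex, went from 0.44 and 0.47 to 1.03 and 1.09, a change of 0.60 (limma adjusted p = 0.0725). Both passed with the block and rose in the value table, by 0.71 and 0.55. A second, dimmer Rab33b probe changed by 0.33 in the table (limma adjusted p = 0.449 with every probe tested). On the scanner arrays Rab2a passed with the block (0.0398). Rab2a and Rab6a, which act between the ER and the Golgi and within the Golgi, rose in the value table by 0.48 and 0.29 (limma adjusted p = 0.0179 and 0.0237). A second, dimmer Rab6a probe changed by 0.06 in the table (limma adjusted p = 0.734 with every probe tested).

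Among Rabs outside these groups, 1 of 3 tested fell. Rab40c, which carries a domain that recruits a ubiquitin ligase, was at 3.77 and 4.06 in the controls and 2.46 and 2.73 with AEPS. The change was -1.32 ± 0.19 (SE, 2 arrays per group, limma adjusted p = 0.0421), a 2.50-fold fall, and it was -1.31 on slide 1 and -1.33 on slide 2. The value table gave -1.28 for Rab40c. With spike-in scaling its change was -0.69 and did not pass (limma adjusted p = 0.117). Rab28 fell by 0.29 in the value table (limma adjusted p = 0.0161), while its scanner change was 0.37 with spike-in scaling. Rab23 passed in neither source.

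The 4 genes called on the scanner arrays depended on how many arrays were used. With 1 array left out, the scanner fit called 0 Rab genes higher and 0 to 2 lower. With 1 sample left out of the value table, 7 to 9 were called higher and 10 to 12 lower. Counts over all features are not given here for these fits. In replicate 3 of the table, 42 of the 47 Rab genes (89.4%) had the sign of their scanner change, against 81.9% of all features. That replicate's difference was -1.89 for Rab3a, -1.66 for Rab19 and -1.30 for Rab40c.

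Genes that share a Rab number were then set against each other within each sample of the value table. Scaling an array by a single factor does not change such a ratio, but quantile normalization, which the table appears to carry, can. These pairs were chosen after the values were seen. The 15 pairs come from 8 numbers and reuse genes, and no share was computed for pairs of other genes, so they are given as a description. An exact two-sided permutation test of 3 against 3 samples cannot go below p = 0.10, so no pair could pass. The ratio of Rab1a to Rab1b differed by 1.21 on the log2 scale, with SDs over samples of 0.01 in the controls and 0.17 with AEPS. On the scanner arrays it differed by 1.42. The ratio of Rab3b to Rab3d differed by 0.88 in the table and by 0.39 on the scanner arrays. The ratio of Rab5a to Rab5b differed by 1.03 and that of Rab5a to Rab5c by 1.02. The ratio of Rab8a to Rab8b changed by -1.21, and that of Rab11a to Rab11b by 0.73. For Rab4a against Rab4b, Rab2a against Rab2b, Rab3b against Rab3c and Rab5b against Rab5c the 2 groups overlapped.

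**Figure D3:**
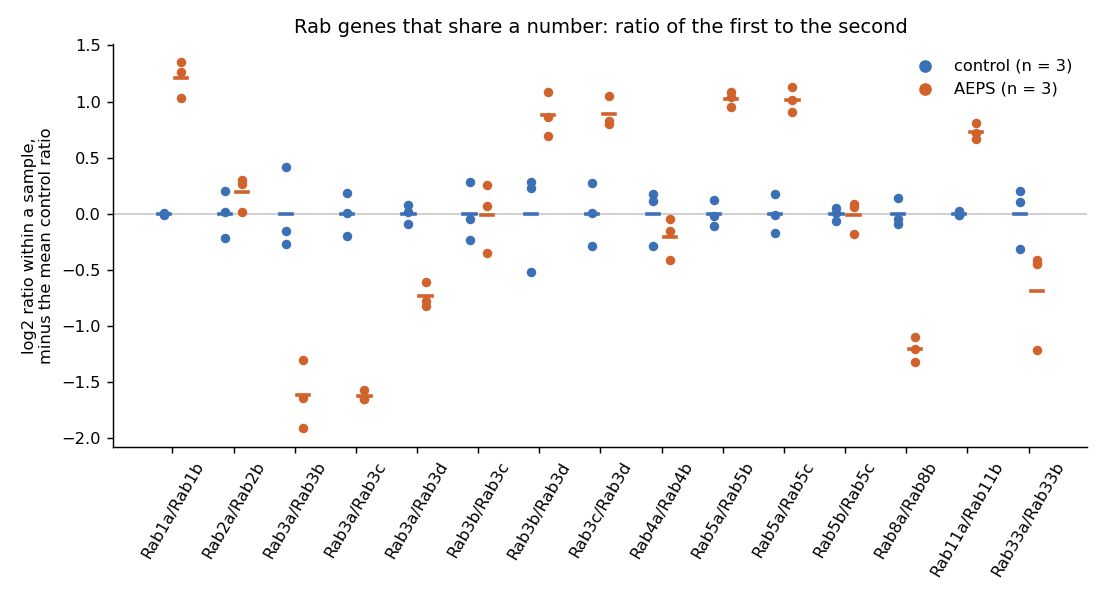
The y axis is the log2 ratio of 2 genes with the same Rab number within a sample of the authors' value table, minus the mean ratio of the controls, and each point is 1 sample (3 per group) with the mean as a bar. The AEPS points of Rab1a/Rab1b, Rab5a/Rab5b, Rab5a/Rab5c and Rab11a/Rab11b lie above those of the controls, and those of Rab3a against each other Rab3 gene and of Rab8a/Rab8b lie below.

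The 10 Rab genes not tested were Rab6b, Rab9b, Rab25, Rab26, Rab27b, Rab30, Rab36, Rab38, Rab39b and Rab40b. Their probes were dim in both groups: none was called well above background on all arrays of a group.

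The genes that act on Rabs were taken from lists by function. Over all features, 4.18% were called higher and 2.94% lower in the scanner fit. These shares were 13% and 16.8% with the block and 17.1% and 16.4% in the value table. The counts of the lists below were not tested against them. In the prenylation and membrane recycling list 1 of 8 tested genes rose and 0 fell in the scanner fit, against 3 and 1 with the block and 2 and 2 in the value table. The riser was Rabggtb, the catalytic beta subunit of Rab geranylgeranyl transferase, which went from 1.0 and 1.25 in the controls to 2.16 and 2.44 with AEPS, a change of 1.17 ± 0.19 (SE, limma adjusted p = 0.0484). With the mean of its probes the change was 0.76 and did not pass (limma adjusted p = 0.0975). Rabggta, the alpha subunit, changed by -0.75 (limma adjusted p = 0.0807), or -0.12 with spike-in scaling, and fell in the value table (limma adjusted p = 0.00363). Gdi2, which lifts GDP-bound Rabs off membranes, changed by 0.11 (limma adjusted p = 0.625). The list's median was 0.07, against -0.19 over all features.

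Of 28 tested exchange factors 0 rose and 2 fell in the scanner fit, against 4 and 8 with the block and 8 and 7 in the value table. Rab3il1, an exchange factor for Rab3a and Rab8, was at 2.98 and 3.02 in the controls and 1.35 and 1.50 with AEPS and fell by 1.57 ± 0.14 (SE, limma adjusted p = 0.0239). With spike-in scaling its change was -0.94 and did not pass (limma adjusted p = 0.0873). Dennd2c, of the DENN family, fell by 0.93 (limma adjusted p = 0.049), a call lost with quantile normalization (-0.78, limma adjusted p = 0.103) and with spike-in scaling (-0.30, limma adjusted p = 0.521). Dennd4a, an exchange factor for Rab10, changed by -0.08 on the scanner arrays and by 0.02 in the value table.

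Of 30 tested GTPase-activating proteins 1 rose and 2 fell in the scanner fit, with a median of -0.37, which became 0.26 with spike-in scaling. The counts were 5 and 10 with the block, against 13% and 16.8% of all features. In the value table they were 4 and 13, against 17.1% and 16.4%. Rab3gap1, the catalytic subunit of the complex that switches Rab3 off, was at -0.49 and -0.70 in the controls and 0.76 and 0.76 with AEPS. It rose by 1.36 ± 0.15 (SE, limma adjusted p = 0.0302). Tbc1d2, which acts on Rab7, fell by 1.37 (limma adjusted p = 0.0321) and Tbc1d14, a regulator of recycling endosomes in autophagy, fell by 1.18 (limma adjusted p = 0.0297). With spike-in scaling the changes of Tbc1d2 and Tbc1d14 were -0.74 and -0.55 and neither passed (limma adjusted p = 0.127 and 0.275). Tbc1d10b changed by -0.31 (limma adjusted p = 0.208), or 0.33 with spike-in scaling.

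Of 27 tested endosomal effectors 2 rose and 1 fell in the scanner fit, against 8 and 5 with the block and 9 and 6 in the value table. Rab11fip1, an effector of Rab11, rose by 1.49 ± 0.18 (SE, limma adjusted p = 0.0336), and Fyco1, which links Rab7 vesicles to kinesin, rose by 1.42 ± 0.19 (SE, limma adjusted p = 0.039). Fyco1 was dim, at -2.62 and -3.02 in the controls and -1.39 and -1.40 with AEPS. With normexp background correction the changes of Rab11fip1 and Fyco1 were smaller, at 0.87 and 0.64, and both passed (limma adjusted p = 0.028 and 0.0321). Plekhm1, a Rab7 effector for fusion with lysosomes, was at 3.50 and 3.44 in the controls and 1.90 and 1.86 with AEPS and fell by 1.59 ± 0.13 (SE, limma adjusted p = 0.0221). With spike-in scaling its change was -0.96 and did not pass (limma adjusted p = 0.109). Vps18, of the tethering complexes on endosomes, changed by -0.35 (limma adjusted p = 0.174), or 0.28 with spike-in scaling.

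Of 16 tested secretory and Golgi effectors 1 rose and 0 fell in the scanner fit, against 4 and 3 with the block and 6 and 1 in the value table, and 9 of the 25 listed were not tested. Micall2, an effector of Rab13 and Rab8, was at 0.75 and 1.20 in the controls and 3.98 and 4.28 with AEPS. It rose by 3.16 ± 0.23 (SE, limma adjusted p = 0.0208), further than any Rab gene. Bicd2, which joins Rab6 vesicles to dynein, changed by 0.67 (limma adjusted p = 0.112) and passed with the block. The Rab kinases Lrrk1 and Lrrk2 changed by -0.98 and 0.73 (limma adjusted p = 0.0623 and 0.0923) and passed in opposite directions with the block. The phosphatase Ppm1h changed by -0.35, or 0.28 with spike-in scaling.

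**Figure D4:**
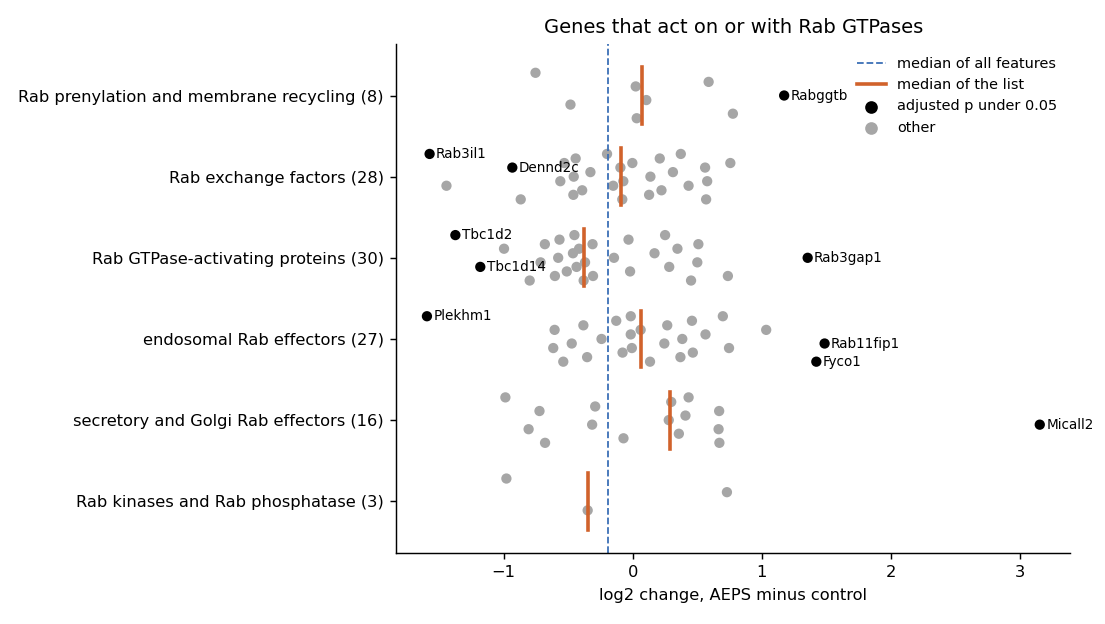
The x axis is the log2 change, AEPS minus control, in the scanner fit for each tested gene of 6 lists (the number tested is in brackets), 1 point per gene spread vertically for legibility. Black points passed an adjusted p of 0.05 in limma, orange bars are list medians and the dashed line is the median of all features, -0.19. Micall2 lies furthest to the right, at 3.16.

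Promoter sequences were examined because members moved in opposite directions. RefSeq windows of 300 bases, 250 before and 50 after a gene's start on GRCm38.p6, were listed for 47 of the 57 Rab genes, in 59 windows. Each was searched on both strands for an E-box (CACGTG), a cAMP response element (TGACGTCA), an AP-1 site (TGANTCA), a kappa B site (GGGA and CC with 4 bases of any kind between) and an interferon-stimulated response element (GAAA repeated after 2 bases of any kind). Overlapping matches were counted separately. These were found in 6, 2, 3, 10 and 1 of the 59 windows, or 10.2%, 3.39%, 5.08%, 16.9% and 1.69%, against 7.15%, 1.79%, 7.81%, 20.7% and 3.44% of 32851 windows of all genes. The shares of the Rab windows lay on both sides of those of all genes and rest on 1 to 10 windows. Whether they differ was not tested. Of the Rab genes with a window, 9 rose and 13 fell in the value table. The E-box was found in 1 riser and 1 faller, and the kappa B site in 1 and 4. The cAMP response element was found in 1 and 0, and the AP-1 site and the interferon-stimulated element each in 0 and 1. A link between motif and direction was not tested. Rab5a, which rose in the value table, held 2 E-boxes and the cAMP response element. Rab19, which fell, held the interferon-stimulated element at 2 overlapping places and a kappa B match. Both stretches are shown. The capitals mark 1 of the Rab5a E-boxes and the cAMP response element, the other E-box lying outside the stretch, and the interferon-stimulated element of Rab19. The kappa B match of Rab19, from base 228 of its window, lies within the stretch shown and is left in lower case. A match describes the letters and is not a measured binding site.
Rab5a (GRCm38.p6, chr17:53479133-53479218, plus strand): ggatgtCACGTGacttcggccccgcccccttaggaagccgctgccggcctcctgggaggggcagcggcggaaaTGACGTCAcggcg
Rab19 (GRCm38.p6, chr6:39381329-39381358, plus strand): agggattgcccttgTTTCCCTTTCGCTTTC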

How the data were processed

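RNA of 6 samples was measured on Agilent arrays. Per the file headers, the deposited scanner files hold spot intensity values from Feature Extraction 10.7.1.1, background-subtracted, with no normalization between arrays and with mm9 positions. The authors' deposited value table is on a log2 scale, with columns that look quantile normalized. How the table was made is not given in sources used here. Here, control spots and outlier flags were left out, spots of a probe averaged, and log2 processed signal centred on each array's 75th percentile. Probes entered the test when the scanner's flag put them above background on all arrays of the controls, of AEPS or of both, so a gene dim in 1 group had to be bright in the other. The brightest tested probe stood for a gene. Probes were named through RefSeq accessions, so that Rab1, Rab6 and Rab7l1 of the array are Rab1a, Rab6a and Rab29. Groups were compared with limma 3.58.1 in R 4.3.3, without covariates. The code was tested on simulated data. Same-numbered samples deviated together from their group means (r = 0.59 on the scanner arrays, and 0.55, 0.35 and 0.39 in the table), so the numbers were taken as pairs. The members and lists were chosen with earlier results of these data known. Values are given array by array for Rab genes past 0.05, those past 0.05 with a change of at least 0.5 in the table, and the brightest gene of each role, and for other lists the 4 largest called changes and the brightest gene that did not pass. Further Rab genes, and Rab7b, Lrrk1 and Lrrk2, were named after their values were seen. Protein sequences were not used here. Normalization, background correction, filters, probe rules, the block and single samples were varied.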

Additional observations from a re-analysis of the deposited data

How the results depend on the processing

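With 2 arrays per group the counts of called Rab genes moved with most settings. The main counts were 1 higher and 3 lower. They were 7 and 5 with quantile normalization, 5 and 0 with spike-in scaling, 8 and 8 with normexp background correction, 3 and 5 with probes above background on every array, 0 and 0 with no filter on dim probes, and 3 and 6 with every probe a feature. With the mean of a gene's probes 2 were higher. With the replicate block they were 8 and 15, 11 and 14 in the authors' value table, and 12 and 19 there with the replicate block. Without 1 array they were 0 higher and 0 to 2 lower, the lone array of a group being assumed to vary like the others. In the value table, leaving out 1 sample gave 7 to 9 higher and 10 to 12 lower, and 7 was reached without AEPS replicate 2. Counts over all 25882 features moved as well, to 1936 higher and 57 lower with spike-in scaling and to 1901 and 2683 with normexp. They are not given here for quantile normalization, for the mean of probes, for every probe a feature or for samples left out. Under spike-in scaling the sign turned for Rab1b (0.0084), Rab24 (0.22), Rab34 (0.39), Rab35 (0.47), Rab3c (0.33), Rab43 (0.18), Rab5c (0.33), Dennd4a (0.55), Tbc1d10b (0.33), Vps18 (0.28) and Ppm1h (0.28). Dennd4a, near 0, also turned with quantile normalization (0.034), the mean of its probes (0.49), the value table (0.017 with and without the replicate block), and ranged from -0.16 to 0.00034 without 1 array. The log2 ratio of Rab5b to Rab5c changed by 0.14 on the scanner arrays and by -0.01 in the value table. In 504 combinations of a named gene and a setting, 340 kept direction and side of the threshold, 74 gained the call, 74 lost it and 16 turned. The cause was not tested. Dim probes limit Rab17, Rab27a, Rab39 and Rab44.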
